A study of Mus musculus with 11 samples.

Results

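The 10 genes described here encode the main heat shock proteins of the cytosol and mitochondria and the co-chaperones that work with them: Hspa1a, Hspa1b and Hspa8 (the HSP70 group), Hsph1 (HSP110), Dnajb1 (a J-domain protein), Bag3 (a nucleotide exchange factor), Hsp90aa1 and Hsp90ab1 (HSP90) and the mitochondrial chaperonin pair Hspd1 and Hspe1. They were taken by their gene symbols, and they are 10 of the 36529 genes listed in each of 11 RNA-seq libraries. The libraries came from BV2 cells, an immortalised mouse microglial line whose labels give the strain C57BL/6. In the nApoE4 experiment, 3 samples received 25 µg/ml of the amino-terminal fragment of apolipoprotein E4 (residues 1 to 151, nApoE4) for 5 h and 3 samples were its untreated controls. In the nApoE3 experiment, 2 samples received the same dose of the corresponding fragment of apolipoprotein E3 (nApoE3) for 5 h, and 3 other samples were its untreated controls. Both recombinant fragments carried a His tag and differed from each other by a single amino acid, a cysteine in nApoE3 and an arginine in nApoE4. The labels name PBS as the vehicle for the series and call both control groups untreated. Each fragment had its own controls and its own experiment, so that fragment and experiment cannot be told apart where treated groups are compared directly. All samples are cultures of 1 cell line, and the study speaks of independent trials without saying what separated the replicates of this sequencing, so p-values measure the spread between these samples, which may be technical.

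Heat shock proteins are molecular chaperones, which bind unfolded or partly folded proteins, prevent their aggregation and help them to fold. HSP70 proteins cycle between ATP-bound and ADP-bound states, J-domain proteins such as Dnajb1 deliver substrates to them and stimulate their ATPase, and nucleotide exchange factors such as Hsph1 and Bag3 release the ADP, while HSP90 acts later on kinases, receptors and other client proteins. The transcription factor HSF1 binds heat shock elements, which are inverted repeats of the letters GAA, and drives Hspa1a, Hspa1b, Dnajb1, Hsph1 and other members when proteins misfold; Hspa8 and Hsp90ab1 are expressed in most cells without stress. In microglia these proteins are studied for their part in handling protein aggregates and in inflammatory signalling.

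Depth and cell identity were as follows. Counts assigned to genes numbered 39732710 to 44162511 per library in the nApoE4 experiment and 55809688 to 69768666 in the nApoE3 experiment, so that 3 counts, taken as the detection floor, corresponded to 0.0679 to 0.0755 and 0.043 to 0.0538 CPM (counts scaled to library size). The marker sums and the values of the genes around Hspa1a and Hspa1b are on this plain scale, and the CPM of members and other chaperone genes also use TMM factors. The 14 listed markers of microglia and macrophages summed to between 2898 and 4417 CPM in every sample, although Aif1, Cx3cr1 and P2ry12 were under 1 CPM in all samples and Trem2 was so in the nApoE3 experiment. In the nApoE4 experiment Trem2 had 64.9 CPM in control replicate 1 and 1.17 to 5.32 CPM in the other samples. The 5 astrocyte markers summed to 1.31 to 1.59 CPM in the controls of nApoE4 and 6.0 to 7.21 with it, and to 1.08 to 1.29 in the controls of nApoE3 and 4.01 to 4.3 with it, with Gfap, Aqp4, Aldh1l1 and S100b under 1 CPM throughout. The 5 neuronal markers summed to between 1.16 and 6.27 CPM, the 5 oligodendrocyte markers to between 9.16 and 24.9, the 4 T cell markers to between 0.524 and 1.56, and the 5 markers of fibroblasts and endothelium to between 1.1 and 2.04. Among the controls of nApoE4, replicate 2 stood apart from replicates 1 and 3. The chi-square per degree of freedom over genes was 25.8 and 47.9 against 7.85 between those replicates, and results that turn on control replicate 2 are given without it. Treated replicate 2 of nApoE4 stood apart to a lesser degree, with 11.9 and 12 against 5.36 between treated replicates 1 and 3.

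As a family, the 10 genes took 0.724 to 0.77% of gene counts in the controls of nApoE4 and 0.676 to 0.73% with nApoE4. They took 1.1% in each control of nApoE3 and 1.17 to 1.18% with nApoE3. Counts per library do not show how much RNA each cell held, so a lower share and less RNA of these genes per cell cannot be told apart.

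The untreated cells showed which members dominate. On the scale of CPM per kilobase of exon (RPKM), the means in the controls of nApoE4 ran in the order Hsp90ab1 799 ± 37.2 (SD, n = 3), Hspa8 467 ± 41.1, Hspd1 394 ± 41.8, Hsp90aa1 297 ± 11.2, Hspe1 140 ± 15.9, Dnajb1 20.6 ± 1.24, Bag3 20.1 ± 0.923 and Hsph1 14.6 ± 0.804. Dnajb1 and Bag3 overlapped in their samples, whereas the other neighbours in that order did not. In the controls of nApoE3 the order was Hsp90ab1 1254 ± 7.76, Hspd1 754 ± 10.8, Hspa8 555 ± 12.1, Hsp90aa1 418 ± 3.27, Hspe1 352 ± 2.09, Hsph1 61.4 ± 0.867, Dnajb1 21.4 ± 0.452 and Bag3 16.6 ± 0.491, and no neighbours overlapped. In both experiments the abundant chaperones therefore lay above the co-chaperones, but Hspd1 stood above Hspa8 and Hsph1 stood above Dnajb1 and Bag3 only in the nApoE3 experiment. Levels between genes are also bounded by read sharing: 33.0% of the 75-base windows of Hspa8 transcripts, 42.8% of those of Hsp90aa1, 31.0% of those of Hspd1 and 14.6% of those of Hspe1 occur in transcripts of another gene, against 0.537% for Hsp90ab1 and 0 for Hsph1, Dnajb1 and Bag3. Reads from such windows would be tallied as multimapped and lost, so the levels of the first 4 genes are less certain. Exon length counted the bases of every annotated transcript of a gene, 4301 for Hspa8 and 7266 for Hsph1 against 2999 for Hsp90ab1. Where cells express a shorter transcript, RPKM comes out too low. The places of Hspa8 and Hsph1 in these orders are therefore uncertain.

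**Figure D1:**
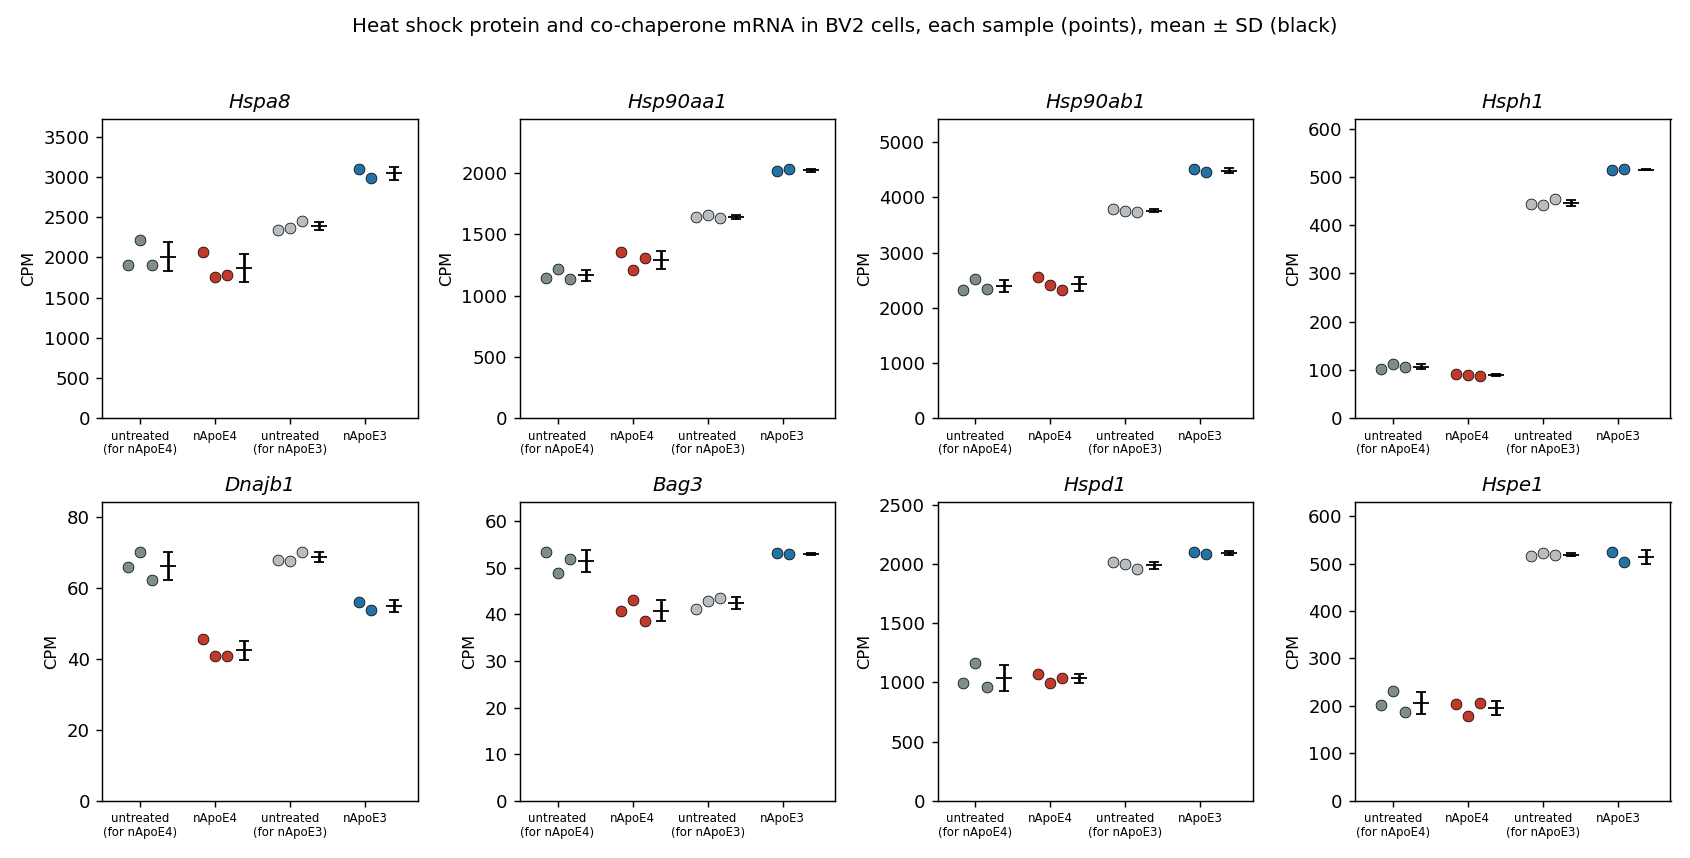
CPM (linear axes from 0) of the 8 members with counts in each of the 11 samples, by group; each point is 1 sample and the black marks are the mean ± SD. Dnajb1 lies lower in the treated samples of both experiments, Bag3 lower with nApoE4 and higher with nApoE3, and Hsph1, Hspd1 and Hspe1 lie well above in all samples of the nApoE3 experiment.

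Hspa1a and Hspa1b, the stress-inducible HSP70 genes, had 0 counts in all 11 libraries. The genes lie on chromosome 17 at chr17:34969190-34972156 and chr17:34956436-34959238 (GRCm38, minus strand), each with 1 exon, and their RefSeq promoter windows (250 bases before the start and 50 from it, build GRCm38.p6) were identical at 296 of 300 positions. The stretch from 215 to 66 bases before each start is shown because the pair cannot be told apart over most of it. GENCODE annotates both stretches as intergenic, and capitals mark the letters GAANNTTC, 104 bases before the start.
Hspa1a, chr17:34972222-34972371, minus strand: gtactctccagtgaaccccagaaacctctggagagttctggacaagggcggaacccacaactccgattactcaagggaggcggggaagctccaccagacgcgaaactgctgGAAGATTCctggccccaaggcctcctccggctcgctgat
Hspa1b, chr17:34959304-34959453, minus strand: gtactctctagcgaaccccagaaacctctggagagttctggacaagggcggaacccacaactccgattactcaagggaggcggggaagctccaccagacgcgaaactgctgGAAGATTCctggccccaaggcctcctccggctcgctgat

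The value of 0 could not be read as an expression level. Of the 2893 windows of 75 bases in Hspa1a transcripts, 1785 (61.7%) also occur in another gene, mostly in Hspa1b, but 1108 do not, and for Hspa1b 1205 of 2729 do not, so that sequence sharing does not cover the whole of either gene. The surrounding genes were low as well. Within 100 kb of Hspa1a lay 17 protein-coding genes with a median of 0.0131 CPM, 15 of them under 1 CPM, and the highest, Ehmt2, had 2.88 CPM; Lsm2, which codes for a general splicing factor, had 2 to 49 counts per library, and Vars, a valyl-tRNA synthetase, had 18 to 44. The 2 genes belonged to a run of 115 consecutive protein-coding genes, from Rab11b to Ddr1 (chr17:33742484-35704741), that were all under 30 CPM on average, with 103 under 1 CPM and a highest mean of 18.7 CPM. Hnrnpm, just before the run, had 587 CPM and Ier3, just after it, had 37.2 CPM. The marker Aif1 and 3 of the related chaperone genes counted here lie in the same run, namely Hspa1l with 0 to 2 counts, Bag6 with 15 to 511 and Pfdn6 with 3 to 37. Whether reads of this region were lost in alignment or counting was not tested.

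**Figure D2:**
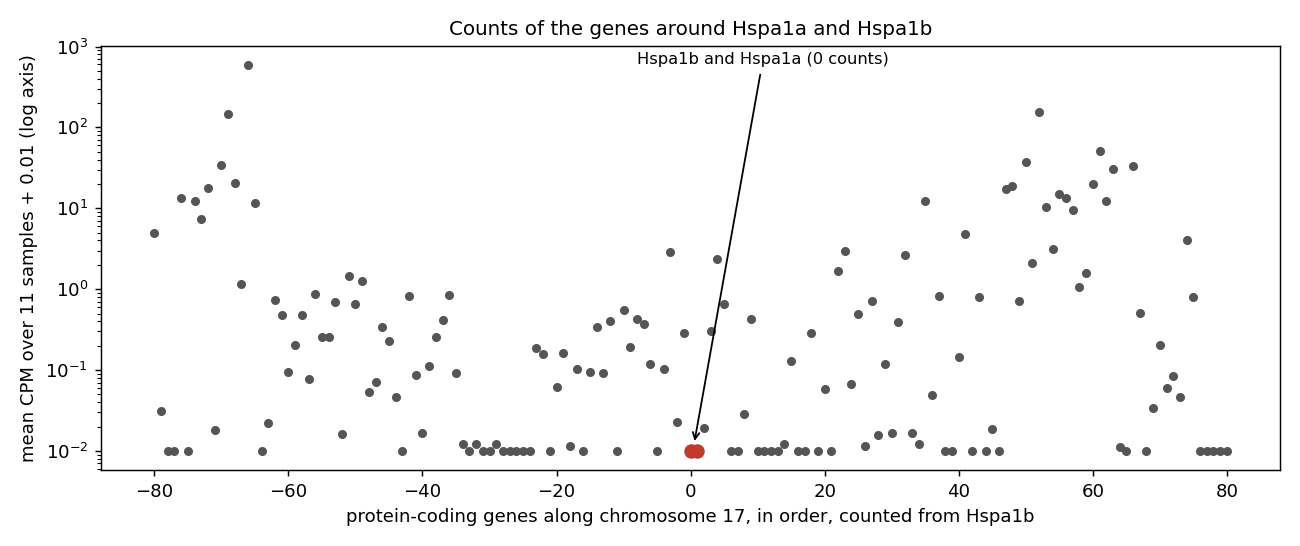
Mean CPM over 11 samples plus 0.01 (log axis) of protein-coding genes in their order along chromosome 17, counted from Hspa1b. Hspa1a and Hspa1b (red) have 0 counts and sit within the run of 115 genes that are all under 30 CPM, between Hnrnpm at 587 CPM on the left and Ier3 at 37.2 CPM on the right.

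After nApoE4, the members that changed fell. Of the 8 members tested, 0 rose (0 also at an unadjusted p of 0.05), 3 fell and 5 did not pass the test (edgeR quasi-likelihood test, Benjamini-Hochberg adjusted p of 0.05 over 14240 genes). By comparison, 57.2% of all genes tested were called, 28.6% as higher and 28.6% as lower, so the 3 of 8 that fell are near the background, and DESeq2 called 1 member, Hsp90aa1, as higher. The 3 that fell were Dnajb1, Bag3 and Hsph1, the co-chaperones of HSP70, and they were also the 3 members whose treated and control samples did not overlap (63.6% of all genes did not overlap). The median log2 fold change of the 8 members was -0.09 against 0.0013 for all genes tested, and it moved with single libraries: it was -0.0114 without control replicate 2, -0.0432 without treated replicate 2, -0.141 without treated replicate 1 and -0.147 without control replicate 3.

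After nApoE3, most members rose. Of the 8 members tested, 6 rose, 1 fell and 1 did not pass the test, where 67.7% of 14817 genes were called, 33.1% as higher and 34.6% as lower. The 6 that rose were Hspa8, Hsp90aa1, Hsp90ab1, Bag3, Hsph1 and Hspd1, and the 1 that fell was Dnajb1. The rises were small, from 1.05-fold to 1.27-fold, and lay above a very narrow spread, with a biological coefficient of variation of 0.0262 in this fit against 0.0838 in the nApoE4 fit. In 7 of the 8 members the treated and control samples did not overlap, as held for 77.6% of all genes. The median log2 fold change of the 8 members was 0.22 against -0.0026 for all genes tested.

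**Figure D3:**
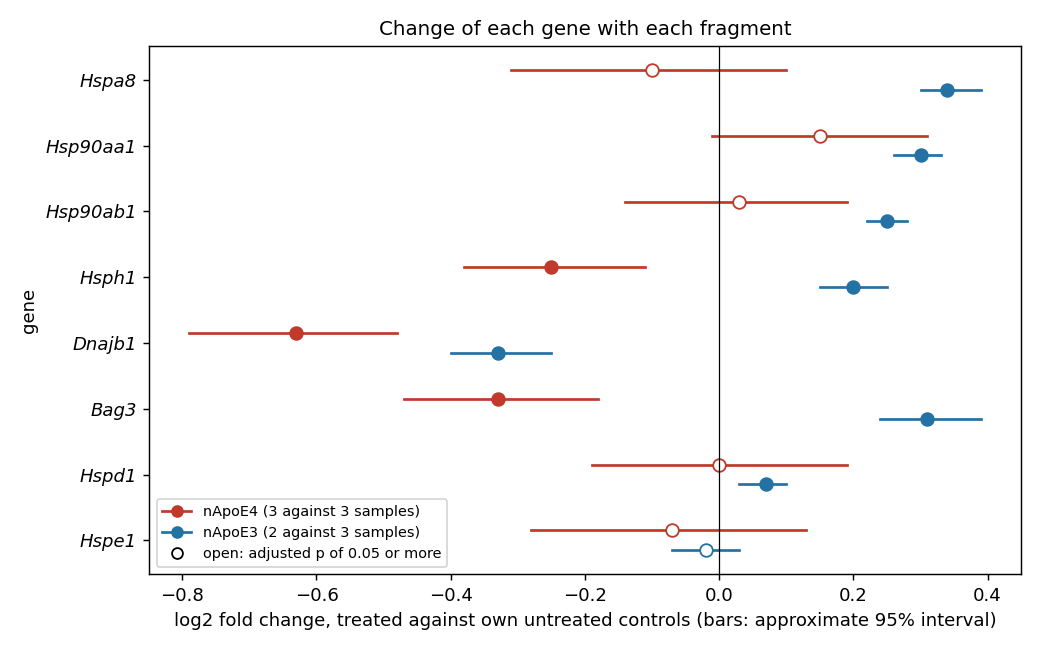
Log2 fold change of each of the 8 members with counts, nApoE4 against its 3 controls (red) and nApoE3 against its 3 controls (blue), with approximate 95% intervals; open points have an adjusted p of 0.05 or more. Bag3 and Hsph1 lie on opposite sides of 0, at -0.33 and -0.25 with nApoE4 and at 0.31 and 0.20 with nApoE3, whereas Dnajb1 is below 0 with both.

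Hspa8 (chr9:40800984-40810087), the constitutive HSP70 of the cytosol, had 1904, 2214 and 1911 CPM in the controls of nApoE4 and 2064, 1751 and 1778 CPM with nApoE4. These groups overlapped, and control replicate 2 was the highest of the 6. The log2 fold change was -0.10 (SE 0.093, adjusted p = 0.367), with an approximate 95% interval from -0.31 to 0.10. Hspa8 in the nApoE3 experiment had 2348, 2370 and 2448 CPM in controls and 3101 and 2992 CPM with nApoE3. Both treated samples lay above every control, by 1.27-fold on average (log2 fold change 0.34, SE 0.021, adjusted p = 1.96e-08), the largest rise among the members. Hspa8 hosts the small nucleolar RNA genes Snord14c, Snord14d and Snord14e, whose bases within its exons make up 2.0 to 2.09% each of its exon length.

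Dnajb1 (chr8:83608193-83612653), the J-domain partner of HSP70 and a classical HSF1 target, had 66.0, 70.1 and 62.1 CPM in the controls of nApoE4 and 45.5, 40.8 and 40.9 CPM with nApoE4. Every treated sample lay well below every control. Dnajb1 was 1.55-fold lower (log2 fold change -0.63, SE 0.069, adjusted p = 3.53e-05), the largest change of any member with this fragment, though 30.6% of all genes changed by more. With the other fragment, Dnajb1 had 67.8, 67.7 and 70.2 CPM in controls and 56.0 and 53.7 CPM with nApoE3. Again both treated samples lay below every control, at 1.25-fold lower (log2 fold change -0.33, SE 0.033, adjusted p = 2.32e-06). Dnajb1 was the only member that fell with both fragments, and its control levels in both experiments overlapped.

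Bag3 (chr7:128523616-128546981), which couples HSP70 to autophagy of aggregated clients, had 53.5, 48.9 and 52.0 CPM in the controls of nApoE4 and 40.7, 43.1 and 38.7 CPM with nApoE4. The treated samples were all lower than the controls, by 1.26-fold on average (log2 fold change -0.33, SE 0.065, adjusted p = 0.0018). Bag3 in the nApoE3 experiment had 41.1, 42.8 and 43.6 CPM in controls and 53.2 and 52.9 CPM with nApoE3. Here the treated samples were both higher, by 1.24-fold (log2 fold change 0.31, SE 0.035, adjusted p = 5.22e-06). Bag3 with nApoE3 reached the level of the controls of nApoE4, and Bag3 with nApoE4 lay near the controls of nApoE3.

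Hsph1 (chr5:149614287-149636376), the HSP110 exchange factor that releases ADP from HSP70, had 101, 112 and 106 CPM in the controls of nApoE4 and 91.7, 89.5 and 86.5 CPM with nApoE4. The groups did not overlap, and the fall was 1.19-fold (log2 fold change -0.25, SE 0.060, adjusted p = 0.00614). Hsph1 in the nApoE3 experiment had 443, 442 and 453 CPM in controls and 514 and 516 CPM with nApoE3. The treated samples were higher by 1.15-fold (log2 fold change 0.20, SE 0.021, adjusted p = 2.74e-06), a step that is small beside the gap between the experiments.

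Hsp90aa1 (chr12:110690605-110702728), the inducible form of cytosolic HSP90, had 1144, 1218 and 1139 CPM in the controls of nApoE4 and 1355, 1213 and 1310 CPM with nApoE4. Treated replicate 2 lay below control replicate 2, so that the groups overlapped by 1 pair of samples. The log2 fold change was 0.15 (SE 0.071, adjusted p = 0.0934, interval -0.01 to 0.31). Without control replicate 2 the adjusted p was 0.0235, with DESeq2 it was 0.0397 and with all 11 samples in 1 fit it was 0.018, so this call depended on the setting. In the nApoE3 experiment Hsp90aa1 had 1639, 1656 and 1631 CPM in controls and 2015 and 2034 CPM with nApoE3, clearly separated, with a rise of 1.23-fold (log2 fold change 0.30, SE 0.016, adjusted p = 5.55e-09).

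Hsp90ab1 (chr17:45567775-45573271), the constitutive HSP90 and the member with the highest CPM, lies on chromosome 17 but outside the run of low genes. It had 2328, 2524 and 2333 CPM in the controls of nApoE4 and 2565, 2414 and 2320 CPM with nApoE4. The groups overlapped, with a log2 fold change of 0.03 (SE 0.074, adjusted p = 0.769, interval -0.14 to 0.19). In the nApoE3 experiment it had 3784, 3757 and 3737 CPM in controls and 4515 and 4462 CPM with nApoE3. Both treated samples were above all controls, by 1.19-fold (log2 fold change 0.25, SE 0.014, adjusted p = 6.2e-09). The ratio of Hsp90ab1 to Hsp90aa1 in RPKM was 2.69 ± 0.0254 (SD, n = 3) in the controls of nApoE4 and 2.47 ± 0.143 (n = 3) with nApoE4, and 3.0 ± 0.026 (n = 3) in the controls of nApoE3 and 2.91 ± 0.043 (n = 2) with nApoE3. The constitutive form thus stayed the more abundant in every sample.

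Hspd1 (chr1:55077835-55088243, minus strand) and Hspe1 (chr1:55088132-55091307, plus strand) code for HSP60 and its lid HSP10, which fold proteins imported into the mitochondrial matrix. The genes stand head to head. The promoter windows of Hspe1 and of the second RefSeq start of Hspd1 share 285 bases on opposite strands, and the 30 bases below are the same stretch read from each side, with capitals on an unbroken run of repeated heat shock element letters. The run lies 144 bases before that start of Hspd1 and 89 bases before that of Hspe1, and GENCODE annotates it as part of an untranslated exon of another Hspd1 transcript.
Hspd1, chr1:55088053-55088082, minus strand: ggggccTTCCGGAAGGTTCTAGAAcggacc
Hspe1, chr1:55088053-55088082, plus strand: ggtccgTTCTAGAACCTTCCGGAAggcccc
The genes also share 112 exon bases on opposite strands, 4.24% of the exon length of Hspd1 and 7.6% of that of Hspe1, and whether the counting used strand is not given in the sources used here.

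Hspd1 had 993, 1167 and 963 CPM in the controls of nApoE4 and 1072, 997 and 1039 CPM with nApoE4. The treated samples lay within the range of the controls, with a log2 fold change of 0.00 (SE 0.084, adjusted p = 0.992, interval -0.19 to 0.19). In the nApoE3 experiment it had 2015, 1999 and 1959 CPM in controls and 2106 and 2082 CPM with nApoE3. The groups did not overlap, but the rise was only 1.05-fold (log2 fold change 0.07, SE 0.017, adjusted p = 0.00385) and was not called in a fit of all 11 samples (adjusted p = 0.414).

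Hspe1 had 202, 232 and 186 CPM in the controls of nApoE4 and 203, 179 and 205 CPM with nApoE4, and 516, 522 and 518 CPM in the controls of nApoE3 and 525 and 504 CPM with nApoE3. The groups overlapped in both experiments. The log2 fold changes were -0.07 with nApoE4 (SE 0.090, adjusted p = 0.516) and -0.02 with nApoE3 (SE 0.022, adjusted p = 0.449), and their intervals ran from -0.28 to 0.13 and from -0.07 to 0.03. The ratio of Hspd1 to Hspe1 in RPKM was 2.81 ± 0.0797 in the controls of nApoE4, 2.96 ± 0.141 with nApoE4, 2.14 ± 0.0329 in the controls of nApoE3 and 2.27 ± 0.0459 with nApoE3. The groups of different experiments lay farther apart in this ratio than treated and control samples of the same experiment.

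The proportion of HSP70 to its co-chaperones was described by ratios. The ratio of Hspa8 to Dnajb1 in RPKM was 22.7 ± 1.05 in the controls of nApoE4 and 32.7 ± 0.959 with nApoE4, and 26.0 ± 0.151 in the controls of nApoE3 and 41.4 ± 0.204 with nApoE3. In neither experiment did treated and control samples overlap in this ratio, which was higher with both fragments. The ratio of Hspa8 to Bag3 was 23.4 ± 3.16, 27.3 ± 3.02, 33.5 ± 0.52 and 34.2 ± 0.701 in the same order of groups, and here the samples overlapped in both experiments. The ratio of Hspa8 to Hsph1 was 31.9 ± 1.33, 35.3 ± 2.54, 9.05 ± 0.0821 and 10.0 ± 0.281 in that order, with overlapping samples in the nApoE4 experiment and both nApoE3 samples above their controls. No test was run on these ratios, which rest on genes already tested one by one. Their size depends on the exon lengths used, whereas their comparison between groups does not.

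The change with nApoE4 was next compared with the change with nApoE3 in 1 model of all 11 samples, which takes each fragment against its own controls. Of the 8 members, 0 differed upward in edgeR (0 also at an unadjusted p of 0.05 and with DESeq2), 5 differed downward and 3 did not pass the test, where 28.3% of 15287 genes were called, 14.4% upward and 13.9% downward. Bag3 differed by -0.65 on the log2 scale (SE 0.077, adjusted p = 4.04e-05) and Hsph1 by -0.46 (SE 0.070, adjusted p = 0.000339), and in both the fall with nApoE4 faced a rise with nApoE3. Hspa8 differed by -0.46 (SE 0.11, adjusted p = 0.00553) and Dnajb1 by -0.32 (SE 0.084, adjusted p = 0.0123), whose fall was larger with nApoE4. Hsp90ab1 differed by -0.23 (SE 0.072, adjusted p = 0.0288). The calls of Hsp90ab1 and Dnajb1 rested on single libraries: without nApoE3 replicate 1 the adjusted p was 0.115 for Hsp90ab1 and 0.0729 for Dnajb1, which left 3 members called. That of Hsp90ab1 was also lost without nApoE3 replicate 2 (0.0853), without nApoE4 replicate 2 (0.0659) or 3 (0.0711) and without replicate 1 (0.0653), 2 (0.0708) or 3 (0.0692) of the controls of nApoE3. Hsp90aa1 differed by -0.15 (adjusted p = 0.134, interval -0.31 to 0), Hspd1 by -0.08 (adjusted p = 0.588, interval -0.29 to 0.13) and Hspe1 by -0.07 (adjusted p = 0.708, interval -0.30 to 0.17). The median difference over the 8 members was -0.28 against 0.0025 for all genes tested. Since the fragments were given in separate experiments from different baselines, an effect of the fragment and one of the experiment cannot be told apart here.

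The untreated cells of the experiments themselves differed in these genes. In the controls of nApoE3 compared with those of nApoE4, 6 of the 8 members were higher, 1 was lower and 1 did not pass the test, where 69.3% of 14249 genes were called, 34.4% as higher and 34.9% as lower. Hsph1 was 4.15-fold higher (log2 difference 2.05, SE 0.051, adjusted p = 1.19e-07), a change that 5.27% of genes exceeded, and Hspe1 was 2.48-fold higher (1.31, SE 0.078, adjusted p = 3.26e-06), which 11.8% of genes exceeded. Hspd1 was 1.89-fold higher (0.92, adjusted p = 1.33e-05), Hsp90ab1 1.55-fold (0.63, adjusted p = 9.52e-06), Hsp90aa1 1.39-fold (0.48, adjusted p = 3.4e-05) and Hspa8 1.18-fold (0.23, adjusted p = 0.0121). Bag3 was 1.22-fold lower (-0.29, adjusted p = 0.00141), and Dnajb1 differed by 0.04 (adjusted p = 0.56, interval -0.09 to 0.16). The call of Hspa8 was lost without replicate 1 of the controls of nApoE4 (adjusted p = 0.0525) and without replicate 3 of those of nApoE3 (0.0515). The 7 called members were those whose control groups did not overlap, as held for 74.1% of all genes. The median was 0.56 against -0.0096 for all genes tested. Depth, the multimapped share (11.7 to 12.4% against 12.8 to 13.2%) and the level of microglial markers differed with the experiment too, and their part in this difference was not tested.

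**Figure D4:**
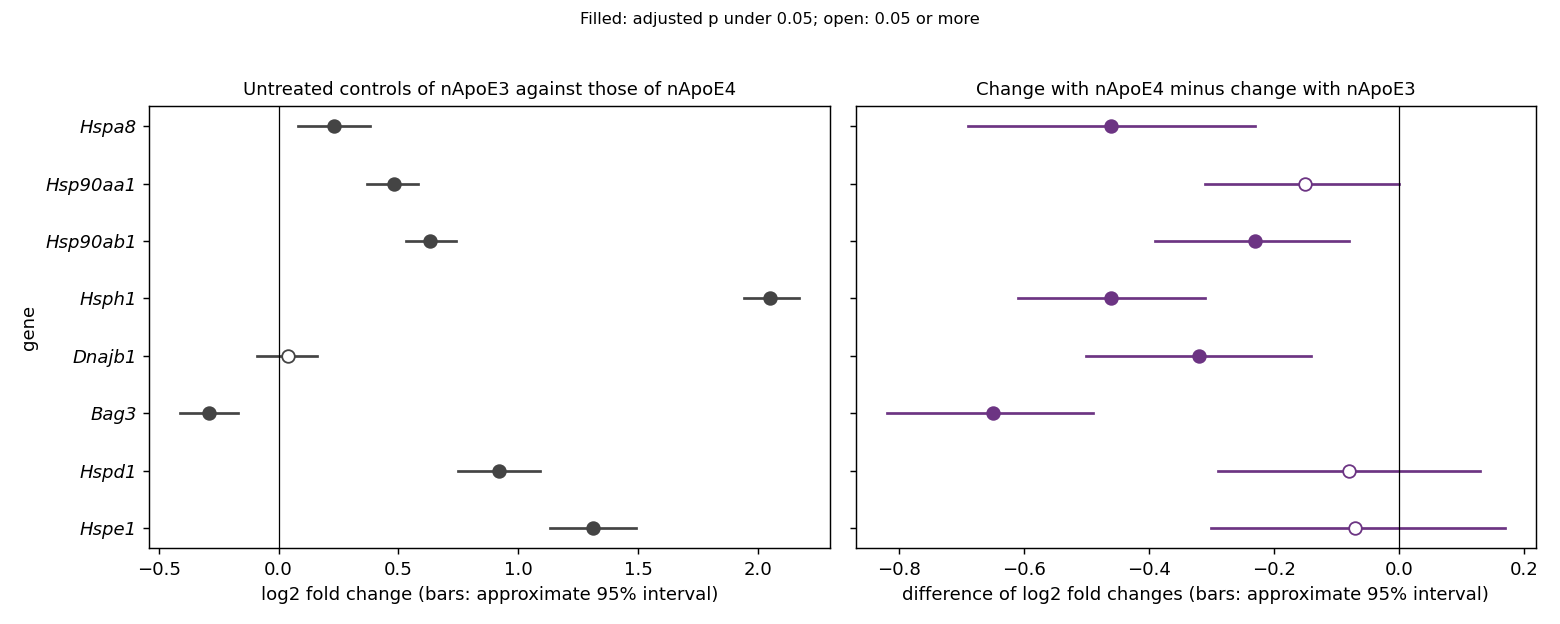
Log2 values of the 8 members with approximate 95% intervals, on axes of different range: on the left the untreated controls of nApoE3 against those of nApoE4, on the right the change with nApoE4 minus the change with nApoE3. Hsph1 (2.05), Hspe1 (1.31) and Hspd1 (0.92) lie farthest to the right among the controls, and Bag3 (-0.65) lies farthest to the left in the difference between fragments.

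The promoter windows were searched for the letters of heat shock elements, on both strands, in the 7 members for which a RefSeq window was at hand (Hspa1a, Hspa1b, Hsph1, Dnajb1, Bag3, Hspd1 and Hspe1). The 2-unit letters GAANNTTC occurred in 6 of the 7 and in 9.04% of 27025 genes, and TTCNNGAA occurred in Hsph1, Hspd1 and Hspe1 and in 9.6% of genes. These matches are not all separate. The windows of Hspa1a and Hspa1b are nearly identical, and those of Hspd1 and Hspe1 hold the same bases read from opposite strands. The members were also listed as heat shock genes, so their share is no test against that of all genes. A run of 3 units, in which TTC and GAA alternate with any NN between them and which contains both 2-unit forms, occurred in Hsph1, Hspd1 and Hspe1 and in 179 genes (0.662%). Hsph1 and Bag3 are shown with their matches, which GENCODE places in untranslated exon sequence at the start of each gene. In Hsph1 the first stretch holds a 2-unit match 33 bases before the start and the second the 3-unit run 36 bases after it, and in Bag3 the match lies 42 bases after the start.
Hsph1, chr5:149636351-149636380, minus strand: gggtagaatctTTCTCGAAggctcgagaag
Hsph1, chr5:149636287-149636304, minus strand: cagaTTCTGGAAAGTTCt
Bag3, chr7:128523617-128523632, plus strand: tgggaccaGAAGTTTC
The 3 members with the 3-unit run were the 3 with the largest difference between the control groups, an order noticed after the values were seen, among 5 measured members with a window. Hspd1 and Hspe1 hold the same run, and Hspa8, Hsp90aa1 and Hsp90ab1 had no window. A link between the run and the levels was not tested. Dnajb1 held none of these letters in its windows, which says only that they are not in these bases. A match is a description of the sequence and not a binding site.

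The transcription factor itself was measured as well. Hsf1, the main regulator of the heat shock response, had means of 39.2 and 43.3 CPM in the controls and treated samples of nApoE4 (log2 fold change 0.15, adjusted p = 0.0581) and 51.4 and 53.9 CPM in those of nApoE3 (0.06, adjusted p = 0.179). It was higher in the controls of nApoE3 than in those of nApoE4 by 0.38 (adjusted p = 0.000116). Hsf2 had 26.1, 27.3, 26.5 and 30.1 CPM in the same order, and rose only in the nApoE3 comparison (log2 fold change 0.18, adjusted p = 0.00395, against 0.07 and 0.351 with nApoE4), where the difference between fragments was -0.12 (adjusted p = 0.258). HSF1 acts largely through its protein state, which mRNA counts do not measure.

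Other genes known as targets of HSF1 moved in both directions. The lists that follow are read against the same background as the members, 57.2% of all genes called with nApoE4, 67.7% with nApoE3 and 69.3% between the control groups. With nApoE4, 6 of 18 tested rose, 2 fell and 10 did not pass, which is 44.4% called and below the background, with a median of 0.09. With nApoE3, 12 of 17 rose, 4 fell and 1 did not pass, which is 94.1% called, with a median of 0.22. Without control replicate 3 of nApoE4, the number that fell with nApoE4 was 4. Dnajb4, a J-domain protein related to Dnajb1, rose with nApoE4 by 1.55 on the log2 scale (adjusted p = 9.44e-08) and with nApoE3 by 1.08 (adjusted p = 5.8e-10), opposite to Dnajb1. Bag2, an exchange factor of the family of Bag3, fell by 1.27 with nApoE4 (adjusted p = 2.97e-07) and by 0.54 with nApoE3 (adjusted p = 1.68e-08). Between the control groups, 12 of 17 were higher and 5 lower in the nApoE3 experiment, where 34.4% of all genes were higher and 34.9% lower.

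Among the co-chaperones of HSP70, 8 of 16 other J-domain genes rose, 3 fell and 5 did not pass with nApoE4, and 9 rose, 2 fell and 5 did not pass with nApoE3. The share called was 68.8% in both, beside 57.2% and 67.7% of all genes. Dnajc9, a J-domain protein that also handles histones, fell with both (-0.49, adjusted p = 0.000787, and -0.91, adjusted p = 2.02e-10). Of 9 exchange and adaptor genes, 1 rose and 3 fell with nApoE4 (44.4% called), and 2 rose and 5 fell with nApoE3 (77.8% called). Stip1 (HOP), which bridges HSP70 and HSP90, was the gene that rose with nApoE4 (0.65, adjusted p = 1.57e-05), and it rose with nApoE3 as well (0.39, adjusted p = 1.87e-09). Of 6 other HSP70 and HSP110 genes, 1 rose and 1 fell with nApoE4 (33.3% called), the one that rose being Hspa4l at group means of 0.851 CPM or less, a call lost without control replicate 1. Of 5 tested with nApoE3 (40% called), Hspa4 rose by 0.08 (adjusted p = 0.000747) and Hspa14 fell by 0.34 (adjusted p = 1.44e-07), and 2 genes fell without control replicate 1 or treated replicate 1.

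Among HSP90 co-chaperones, 6 of 15 rose, 3 fell and 6 did not pass with nApoE4, and 8 of 16 rose, 4 fell and 4 did not pass with nApoE3. The shares called, 60% and 75%, were near the 57.2% and 67.7% of all genes. Ptges3 (p23), which stabilises the closed form of HSP90, rose with nApoE4 (0.38, adjusted p = 0.00425) and with nApoE3 (0.26, adjusted p = 1.99e-06). Ahsa1, which stimulates the ATPase of HSP90, fell with nApoE4 (-0.35, adjusted p = 0.00204) and with nApoE3 (-0.12, adjusted p = 0.000223). Fkbp4, an immunophilin, had a log2 fold change of -0.18 with nApoE4 (adjusted p = 0.0536) and fell with nApoE3 (-0.33, adjusted p = 1.64e-07). Between the control groups, 11 of 16 were higher in the nApoE3 experiment and 0 were lower in edgeR or DESeq2 (0 also at an unadjusted p of 0.05), a share of 68.8% called beside 69.3% of all genes.

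The subunits of the CCT chaperonin and prefoldin fold actin and tubulin. With nApoE3, 12 of 14 rose and 0 fell in edgeR or DESeq2 (1 at an unadjusted p of 0.05, and 1 without control replicate 1), and with nApoE4, 4 of 13 rose, 0 fell by either tool (0 also at an unadjusted p of 0.05) and 9 did not pass. With nApoE3, 33.1% of all genes rose and 34.6% fell, and with nApoE4, 28.6% rose and 28.6% fell, so that the 4 of 13 were near the background. The count that rose with nApoE4 rested on single libraries: it was 11 without control replicate 2, and 1 without control replicate 1 or 3 or without treated replicate 1 or 3. Pfdn4 rose with nApoE4 (0.45, adjusted p = 0.00391) and with nApoE3 (0.62, adjusted p = 2.22e-08).

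In the mitochondrion, where Hspd1 and Hspe1 act, 5 of 15 other chaperones and proteases rose, 4 fell and 6 did not pass with nApoE4, and 5 rose, 8 fell and 2 did not pass with nApoE3. The shares called were 60% and 86.7%, beside 57.2% and 67.7% of all genes, to which the lists below also compare. Hspa9 (mortalin), the mitochondrial HSP70, rose with nApoE4 (0.33, adjusted p = 0.00272) and with nApoE3 (0.22, adjusted p = 1.46e-07). Clpx, an unfoldase, fell with nApoE4 (-0.66, adjusted p = 5.94e-05) and with nApoE3 (-0.27, adjusted p = 6.32e-05). In the endoplasmic reticulum, 2 of 18 chaperones rose and 5 fell with nApoE4 (38.9% called, below the background), and 3 rose and 9 fell with nApoE3 (66.7% called). Hspa5 (BiP), its HSP70, rose with both, by 0.78 (adjusted p = 6.58e-06) and 0.41 (adjusted p = 1.59e-08). Most called genes of this list fell, and Sdf2l1 fell with both (-0.55, adjusted p = 0.000347, and -0.52, adjusted p = 5.13e-08). Without control replicate 2, the number of endoplasmic reticulum chaperones that rose with nApoE4 was 4. Of 4 genes tested that bear the names of small heat shock proteins, 1 rose and 2 fell with nApoE4 (75% called), and 1 rose and 1 fell with nApoE3 (50% called). The rise with nApoE4, that of Hspb11, was lost without control replicate 1 or 3 or without any of the treated replicates. Hspb7 was among those that fell with nApoE4 (-0.81, adjusted p = 5.82e-05), and had -0.06 with nApoE3 (adjusted p = 0.426). Of 5 genes tested that were listed with the heat shock factors, 1 rose and 1 fell with nApoE4 (40% called), and 2 rose and 2 fell with nApoE3 (80% called). Without treated replicate 3, 2 rose with nApoE4. Hspbap1, named for a protein associated with HSPB1 and not itself a heat shock factor, was the one that rose with nApoE4 (0.78, adjusted p = 1.25e-05). It rose with nApoE3 as well (0.40, adjusted p = 2.22e-05).

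Genes with the pattern most like that of a member were sought over the 11 samples, by the root mean square difference of log2 CPM after each gene's mean was subtracted. For Hspa8 these were Atp1b3 (0.0565), Bub3 (0.0567) and Rrp8 (0.0579), for Hsp90aa1 Ssr3 (0.0374), Grsf1 (0.0385) and Psmd14 (0.0385), and for Hspd1 Rab1a (0.0316), Hdac2 (0.0377) and Phax (0.0455). None of them is a chaperone of the lists counted here. The 3 members themselves spanned 0.82, 0.84 and 1.13 log2 units across the samples, and the 11 samples share 4 groups and 2 experiments, so that a likeness over them is a description.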

How the data were processed

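Total RNA of 11 BV2 cultures was sequenced as single 75-base reads. Per the labels and the study's methods, the authors trimmed reads (Trim Galore 0.5.0), checked them (FastQC 0.11.8), aligned them to GRCm38.p6 (HISAT2 2.1.0) and counted them per gene (HTSeq 0.11.0); the deposited values are raw counts per gene, with no normalization. The annotation, strand setting and overlap mode are not given in the sources used here. Rows that name no gene (unaligned, ambiguous, multimapped and similar) were left out of library sizes; 76.0 to 77.7% of all tallied reads lay on genes.

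Treated samples were set against the controls of the same experiment, the control groups with each other, and the changes with each other in a model of all 11 samples, by edgeR 4.0.16 in R 4.3.3 (filterByExpr, TMM, quasi-likelihood test, two-sided, Benjamini-Hochberg over all genes tested, threshold 0.05). Standard errors are the log2 fold change divided by the root of F, and intervals (95%) use the same spread; both are approximate. CPM of members and listed genes used TMM factors over 11 samples; floors, marker sums and chromosome 17 neighbours used library totals alone. RPKM divided the former CPM by GENCODE vM21 exon length, taken over the exons of all annotated transcripts of a gene. Members without counts in any library were not tested. Besides the members, Hsf1 and Hsf2, the text draws named genes from a rule that takes up to 2 of each list with the largest rise and fall past the threshold and a mean of at least 5 CPM. It names only some of the genes that the rule returned, a choice the rule did not fix, and most of those moved the same way with both fragments. Afg3l2, Ppp5c and Unc45a were returned but not described, and each was called in opposite directions with the fragments. Hspa4l and the genes named on chromosome 17 around Hspa1a were chosen after their values were seen. The members, lists and rule were chosen with earlier results of these data known. Alternatives were DESeq2 1.42.0, DESeq2 size factors, other filters on low counts, thinning, a replicate block, all samples in 1 fit and leaving out each library. The scripts were tested on simulated data. Floors on counts cover counting error only.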

Additional observations from a re-analysis of the deposited data

Results flagged for a closer look

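In 5 members the change with nApoE4 differed from the change with nApoE3 by the test of that difference in edgeR, where 28.3% of 15287 genes were called. Bag3 differed by -0.65 on the log2 scale, Hspa8 by -0.46, Hsph1 by -0.46, Dnajb1 by -0.32 and Hsp90ab1 by -0.23. In each, the change with nApoE4 was lower than that with nApoE3. With nApoE4 itself, Hspa8 (-0.10, adjusted p = 0.367) and Hsp90ab1 (0.03, adjusted p = 0.769) were not called. Both rose with nApoE3 (0.34 and 0.25). The calls of Hsp90ab1 and Dnajb1 for the difference rested on single libraries. With a replicate block, Hspa8, Dnajb1 and Hsp90ab1 were not called. Bag3 and Hsph1 were lower in 3 of 3 samples with nApoE4 and higher in 2 of 2 samples with nApoE3, each against every control of its own experiment, and Dnajb1 was lower in every treated sample of both experiments; groups did not overlap in 63.6% of all genes with nApoE4 and in 77.6% with nApoE3. Each fragment was given in 1 experiment, so fragment and experiment cannot be told apart. No group held enough samples for a test of outlying samples.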

How the results depend on the processing

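No log2 fold change of a member changed sign past the threshold under any alternative run. For the lists, only the counts of genes that rose and fell were compared between runs, and signs of single list genes were not examined. With nApoE4, the number of members that rose was 1 with DESeq2 and with all 11 samples in 1 fit, and 0 to 1 when each library was left out, the 1 being Hsp90aa1. The median with nApoE4 was -0.147 to -0.0114 when each library was left out. With nApoE3, the median of the members, 0.225, was 0.233 with DESeq2 size factors or DESeq2, 0.215 for genes with at least 1 count, 0.236 for genes with 10 or more counts in each library, 0.231 with all 11 samples in 1 fit and 0.221 to 0.229 when each library was left out. Between the control groups the median was 0.565 for genes with at least 1 count, 0.571 with all 11 samples in 1 fit and 0.537 to 0.593 when each library was left out. For the difference between fragments, 3 to 5 members were lower when each library was left out, and Hsp90ab1 lost its call for genes with at least 1 count (adjusted p = 0.142). Without mitochondrially encoded genes the family took 1.12% of counts in the controls of nApoE3 and 1.2% with nApoE3. The cause of these shifts was not tested.

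Replicate numbers did not pair the samples: same-numbered samples deviated together with correlations of -0.0667, -0.232 and -0.0935 in the nApoE4 experiment and 0.00947 and -0.0125 in the nApoE3 experiment, and 0 of 6 samples of the former correlated best with their own number. With a replicate block, 2 members (Bag3 and Hsph1) and 2307 of all genes were called lower or different between fragments, in place of 5 members and 4331 genes, since Hspa8, Dnajb1 and Hsp90ab1 had adjusted p-values of 0.0639, 0.0633 and 0.217; the median of the members with nApoE3 was 0.229, and no other call of a member changed. The 2 samples with nApoE3 limit that comparison, and with 1 left out the lone sample is assumed to vary like its controls. Depth was not limiting for the 8 members with counts, whose calls were the same after thinning to the smallest library.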
